A study of Mus musculus with 9 samples.

Results

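Cassette exons are internal exons that a cell either keeps in or leaves out of a messenger RNA. The exons described here were the alternative ones that were longer than 51 nt and had a length divisible by 3, so that leaving them out removes a whole number of codons. A member had a length of 52 nt or more, at least 20 inclusion plus exclusion reads in every library of its experiment, and an inclusion level over 10% and under 90% in the control libraries. Inclusion is given as percent spliced in (PSI), which is inclusion over inclusion plus exclusion. The rule gave 1626 exons in 1294 genes in the first of 2 knockdown experiments and 1529 exons in 1201 genes in the second. The 2 sets shared 1308 exons, and 1847 exons in 1436 genes belonged to at least one of them, out of 54141 cassette exons listed. The rule read the control PSI, so control levels are given as a description.

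The cells were N2A, a mouse neuroblastoma line, transfected with pools of small interfering RNAs (siRNA) and harvested after 48 hours for sequencing of polyadenylated RNA. The first experiment held 1 library each of siMbnl1/Mbnl2 (both genes targeted together), siNacc1 and a non-targeting control, siNT. The second held 2 libraries each of siSrrm4, siZfp871 and its own siNT, and the libraries of a group are given below as a and then b. All groups shared the cell line and the transfection. The labels do not say whether a and b came from separate cultures, so a p-value measures the spread between these libraries, which may be technical, and the first experiment has no replicate check at all. A pool can also act on unintended transcripts, and no second siRNA, rescue or clone was part of the groups.

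Srrm4 is a neural splicing regulator known for promoting the inclusion of very short exons (microexons). Mbnl1 and Mbnl2 are zinc finger RNA-binding proteins that raise or lower the inclusion of an exon depending on where they bind beside it. Nacc1 is a BTB-domain protein of the nucleus and Zfp871 a zinc finger protein. Exons that keep the reading frame insert or remove a stretch of protein without changing what follows, whereas a frame-shifting exon often brings in an early stop codon.

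Exons on which the results turn are shown first, as sequence. Capitals mark the alternative exon, and the lower-case letters before and after it are the last and first 24 bases of the neighbouring exons. The letters come from GENCODE M21 transcripts (GRCm38), where an exon of the same length between introns of the same lengths was found. The first set holds exons of the second experiment. They lie in genes of a motor, of transcription and of vesicle release whose exons were low, and in 1 DNA-binding factor whose exon was high, when Srrm4 was knocked down.
Dync1i2, 60 nt, 20 codons (GRCm38 chr2:71233649-71233708, + strand): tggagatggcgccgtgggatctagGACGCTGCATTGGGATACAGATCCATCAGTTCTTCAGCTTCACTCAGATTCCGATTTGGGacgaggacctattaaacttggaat
Med24, 57 nt, 19 codons (GRCm38 chr11:98717709-98717765, - strand): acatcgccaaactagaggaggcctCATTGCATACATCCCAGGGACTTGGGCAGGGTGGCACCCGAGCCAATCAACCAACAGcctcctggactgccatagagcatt
Madd, 63 nt, 21 codons (GRCm38 chr2:91155013-91155075, - strand): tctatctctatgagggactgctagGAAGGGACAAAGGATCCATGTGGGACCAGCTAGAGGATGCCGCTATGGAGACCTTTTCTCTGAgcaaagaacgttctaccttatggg
Tead1, 63 nt, 21 codons (GRCm38 chr7:112841888-112841950, + strand): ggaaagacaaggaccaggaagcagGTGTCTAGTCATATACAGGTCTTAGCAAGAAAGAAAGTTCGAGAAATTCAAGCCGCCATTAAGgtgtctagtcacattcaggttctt
The first 24 bases of the Tead1 exon matched the first 24 bases of the exon after it at 19 positions, so reads of these similar exons could be assigned to either.

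The second set holds exons of the first experiment: the exons of Mbnl1 and Mbnl2 themselves, a tau exon of Mapt, and exons of signalling, Golgi and transcription genes.
Mbnl1, 54 nt, 18 codons (GRCm38 chr3:60614683-60614736, + strand): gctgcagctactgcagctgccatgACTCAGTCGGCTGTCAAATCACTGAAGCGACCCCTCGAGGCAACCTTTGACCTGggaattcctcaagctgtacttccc
Mbnl2, 54 nt, 18 codons (GRCm38 chr14:120395712-120395765, + strand): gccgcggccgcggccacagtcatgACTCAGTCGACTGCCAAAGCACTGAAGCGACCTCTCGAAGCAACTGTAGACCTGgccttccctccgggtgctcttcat
Mapt, 87 nt, 29 codons (GRCm38 chr11:104287123-104287209, + strand): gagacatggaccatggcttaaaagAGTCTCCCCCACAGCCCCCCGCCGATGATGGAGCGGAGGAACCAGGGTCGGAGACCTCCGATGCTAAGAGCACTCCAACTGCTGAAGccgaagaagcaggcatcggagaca
Arhgef12, 57 nt, 19 codons (GRCm38 chr9:43040540-43040596, - strand): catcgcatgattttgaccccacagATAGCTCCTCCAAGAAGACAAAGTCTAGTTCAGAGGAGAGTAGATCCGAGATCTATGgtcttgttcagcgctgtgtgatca
Map3k4, 156 nt, 52 codons (GRCm38 chr17:12242650-12242805, - strand): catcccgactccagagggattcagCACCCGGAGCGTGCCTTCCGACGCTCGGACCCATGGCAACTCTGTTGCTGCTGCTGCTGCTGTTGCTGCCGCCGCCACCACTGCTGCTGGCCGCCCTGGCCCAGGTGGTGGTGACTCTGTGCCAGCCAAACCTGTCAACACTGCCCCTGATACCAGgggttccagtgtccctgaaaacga
Map3k7, 81 nt, 27 codons (GRCm38 chr4:31994874-31994954, + strand): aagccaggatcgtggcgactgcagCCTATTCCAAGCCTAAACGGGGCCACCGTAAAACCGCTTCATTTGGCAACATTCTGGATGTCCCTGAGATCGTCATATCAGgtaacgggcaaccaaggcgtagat
Golim4, 84 nt, 28 codons (GRCm38 chr3:75902401-75902484, - strand): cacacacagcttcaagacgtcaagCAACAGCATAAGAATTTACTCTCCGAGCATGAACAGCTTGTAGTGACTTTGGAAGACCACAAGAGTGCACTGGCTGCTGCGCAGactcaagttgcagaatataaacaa
Nfya, 81 nt, 27 codons (GRCm38 chr17:48398985-48399065, - strand): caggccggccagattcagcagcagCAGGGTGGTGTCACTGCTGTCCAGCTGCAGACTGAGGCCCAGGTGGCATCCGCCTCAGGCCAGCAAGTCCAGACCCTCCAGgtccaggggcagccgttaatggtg
Tnik, 87 nt, 29 codons (GRCm38 chr3:28594907-28594993, + strand): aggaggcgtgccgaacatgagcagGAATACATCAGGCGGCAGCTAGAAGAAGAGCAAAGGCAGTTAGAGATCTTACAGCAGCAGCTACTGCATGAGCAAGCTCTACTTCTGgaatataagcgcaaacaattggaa
The Mbnl1 and Mbnl2 exons had the same base at 46 of 54 positions (85.2%).

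Members were 54 to 4962 nt long in the first experiment and 54 to 2976 nt in the second, with a median of 108 nt (36 codons) in both. Their median control PSI was 59.2% in the first and 61.9% in the second. Exons at 80% or more made up 28.2% and 30.8% of the members of the first and second experiment, and exons under 20% made up 16.5% and 15.0%. In the first experiment the exons just inside the lower bound were those of B230206L02Rik (10.0%) and Fmnl2 (10.03%), and Slain2 (9.95%) and Clock (9.97%) were just outside. At the upper bound Fubp3 (89.99%) was inside and Oma1 (90%) outside. In the second, Nop58 (10.03%) was inside and Ppip5k2 (9.85%) outside, and Neurl4 (89.96%) was inside and Setdb2 (90%) outside. No member overlapped another, but 232 genes of the first and 225 of the second held more than 1 member, up to 10 in Ank3, and exons of 1 gene share transcripts.

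Coding position was not used by the rule. Of the 1243 members of the first experiment that matched an exon of GENCODE M21, 77.4% were wholly coding, 7.08% lay in an untranslated region and 9.82% occurred only in transcripts not annotated as protein coding. Of the 1169 matched members of the second experiment, 80.2% were wholly coding, 6.50% were untranslated and 7.96% were in such transcripts only. Frame-shifting exons over 51 nt in the same PSI and read window (2011 and 1751 exons) were wholly coding in 60.1% and 59.1% of matched cases and untranslated in 13.9% and 14.8%. The difference in shares was not tested, since exons of 1 gene are not independent.

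Gene counts summed to between 44186088 and 63715449 per library, and the members received between 377699 and 581386 inclusion and exclusion reads per library. The median member had 124 reads in its shallowest library of the first experiment and 108 in that of the second, and 344 and 376 members had fewer than 50. The targeted genes were lower in their own knockdowns. Mbnl1 stood at 45.2 CPM (gene counts scaled to the library total) with siMbnl1/Mbnl2 and 124 with siNT, Mbnl2 at 18.2 with siMbnl1/Mbnl2 and 65.7 with siNT, and Nacc1 at 51.97 with siNacc1 and 208 with siNT. Srrm4 had 28.3 and 26.0 CPM in siSrrm4 against 66.9 and 96.1 in siNT, and 45.3 and 53.9 in siZfp871. Zfp871 had 7.24 and 5.10 CPM in siZfp871 against 17.6 and 26.1 in siNT. All 9 neuronal and neuroblastoma markers were at 1 CPM or more in every library. The summed CPM of 4 mesenchymal markers was 30.3 and 102.5 in siZfp871 against 4.54 and 14.7 in siNT. Nearly all of it was Acta2, at 29.4 and 101.8 in siZfp871 against 3.55 and 14.2 in siNT. Col1a1, Col1a2 and Pdgfrb were under 1 CPM in both groups. Glial, epithelial and immune markers summed to at most 7.71 in any library. In bulk RNA, more cells of a type and more RNA per cell cannot be told apart. The part of the higher Acta2 in the siZfp871 results below was not tested.

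Knockdown of Srrm4 was compared with its control to find which frame-preserving exons lost or gained inclusion. The exon of Dync1i2, an intermediate chain of the dynein motor, had PSI values of 6.51% and 6.45% in siSrrm4, 12.2% and 12.03% in siZfp871 and 35.2% and 45.6% in siNT. That of Med24, a subunit of the Mediator complex of transcription, had 29.6% and 26.8% in siSrrm4, 54.4% and 45.6% in siZfp871 and 72.6% and 74.5% in siNT. In both exons the siSrrm4 libraries were the lowest, the siZfp871 libraries lay between, and no group overlapped another. The mean difference from siNT was -33.9 points in Dync1i2 (adjusted p = 0.111) and -45.4 points in Med24 (adjusted p = 0.141), the 2 lowest adjusted p-values among the members and neither under 0.05 (edgeR quasi-likelihood test, Benjamini-Hochberg adjustment over 20266 exons).

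The quasi-likelihood test called 0 of 1529 members at an adjusted p under 0.05 with a difference of at least 10 points, and 0 of the 20266 exons tested (background 0%). Unadjusted, 62 members had p under 0.05, of which 34 were higher and 28 lower, beside 404 higher and 638 lower of the 20266 exons tested. The 62 are no larger a share of the members than those are of all tested exons. With edgeR's default abundance trend, a setting tried after the data were seen, the same test called 2 members, both lower, and limma called 0. A likelihood ratio test on the same counts called 22 members higher (background 0.271%) and 37 lower (1.12%, and 1.39% in either direction). That test takes the moderated dispersion of each exon as known. As a description, 119 members were higher (background 1.88%) and 97 lower (2.6%) in both siSrrm4 libraries than in both siNT libraries by at least 10 points on average, together 14.1% against 4.48%. The background includes exons near 0% or 100%, which have less room to move, so nothing is read from that gap or from the like gaps of exons below.

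Next to these stood exons of vesicle and synapse genes. The exon of Madd, a Rab3 exchange factor, had 30.1% and 28.8% in siSrrm4, 46.1% and 39.7% in siZfp871 and 72.4% and 73.95% in siNT (adjusted p = 0.177, siSrrm4 against siNT). The 63-nt exon of Ppfia1 (mm9 chr7:151675102-151675164, - strand), a liprin scaffold, had 14.8% and 12.1% in siSrrm4, 20.1% and 21.9% in siZfp871 and 41.3% and 41.97% in siNT (adjusted p = 0.241). In both, siSrrm4 was lowest and siNT highest without overlap. A 108-nt exon of Bin1, a membrane-bending amphiphysin (mm9 chr18:32588850-32588957, + strand), had 37.6% and 28.3% in siSrrm4, 38.7% and 44.3% in siZfp871 and 67.99% and 64.5% in siNT (adjusted p = 0.446), so that both knockdowns were below the control and siSrrm4 was below siZfp871. The 279-nt exon of Pou2f2, a POU transcription factor (mm9 chr7:25900490-25900768, - strand), had 47.8% and 47.5% in siSrrm4, 72.4% and 74.5% in siZfp871 and 84.8% and 84.6% in siNT on only 25 to 72 reads per library. The exon of Faim, an inhibitor of apoptosis, had 13.6% and 11.7% in siSrrm4, 17.8% and 13.8% in siZfp871 and 36.2% and 34.5% in siNT. Both knockdowns stood below the control in these as well.

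The 10 largest average decreases in siSrrm4 among members whose groups did not overlap ranged from 22.9 to 45.4 points, and 9 of the 10 were called by the likelihood ratio test. Beside Dync1i2, Med24, Madd, Ppfia1, Bin1 and Pou2f2 they included 2 exons of Snap91, the clathrin assembly protein AP180, with 38.3% and 27.2% in siSrrm4, against 59.98% and 55.5% in siNT for the 108-nt exon. The others were in Irgm1, an immunity-related GTPase, with 43.5% and 39.7% in siSrrm4, against 73.9% and 64% in siNT, and Vdac3, a mitochondrial porin, with 44.2% and 32% in siSrrm4, against 54.8% and 73.3% in siNT. These last had libraries with as few as 23 and 24 reads.

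Other exons stood higher in siSrrm4, none past the adjusted threshold. The exon of Tead1, a transcription factor of the Hippo pathway, had 48.3% and 46.99% in siSrrm4, 35.5% and 18% in siZfp871 and 15.8% and 18.4% in siNT (44 to 122 reads, adjusted p = 0.806). Flnc, an actin crosslinking filamin, had 72.1% and 80.95% in siSrrm4, 89.2% and 87.9% in siZfp871 and 58.1% and 46.7% in siNT for its 99-nt exon (mm9 chr6:29402799-29402897, + strand). For Tead1 the siSrrm4 libraries were above all others, and for Flnc both knockdowns were above the control, on 34 to 93 reads. The siNT library of the first experiment had 74.03% for this Flnc exon, so the controls of the experiments differed for it. The exon of Slc9a7, a sodium-proton exchanger of the Golgi, had 60% and 45.5% in siSrrm4, against 31.3% and 23.8% in siNT. That of Lcor, a corepressor of nuclear receptors, had 80% and 84.6% in siSrrm4, against 57.7% and 63.2% in siNT. The other 6 of the 10 largest increases were in Foxn3, Ctso, Lrrc49, Rnf111, Phactr2 and Anks1, and the 10 together spanned 21.9 to 30.6 points. Adjusted p-values were between 0.806 and 0.837 for the 10 increases, 7 of them had a library with fewer than 50 reads, and 2 were called by the likelihood ratio test.

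**Figure D1:**
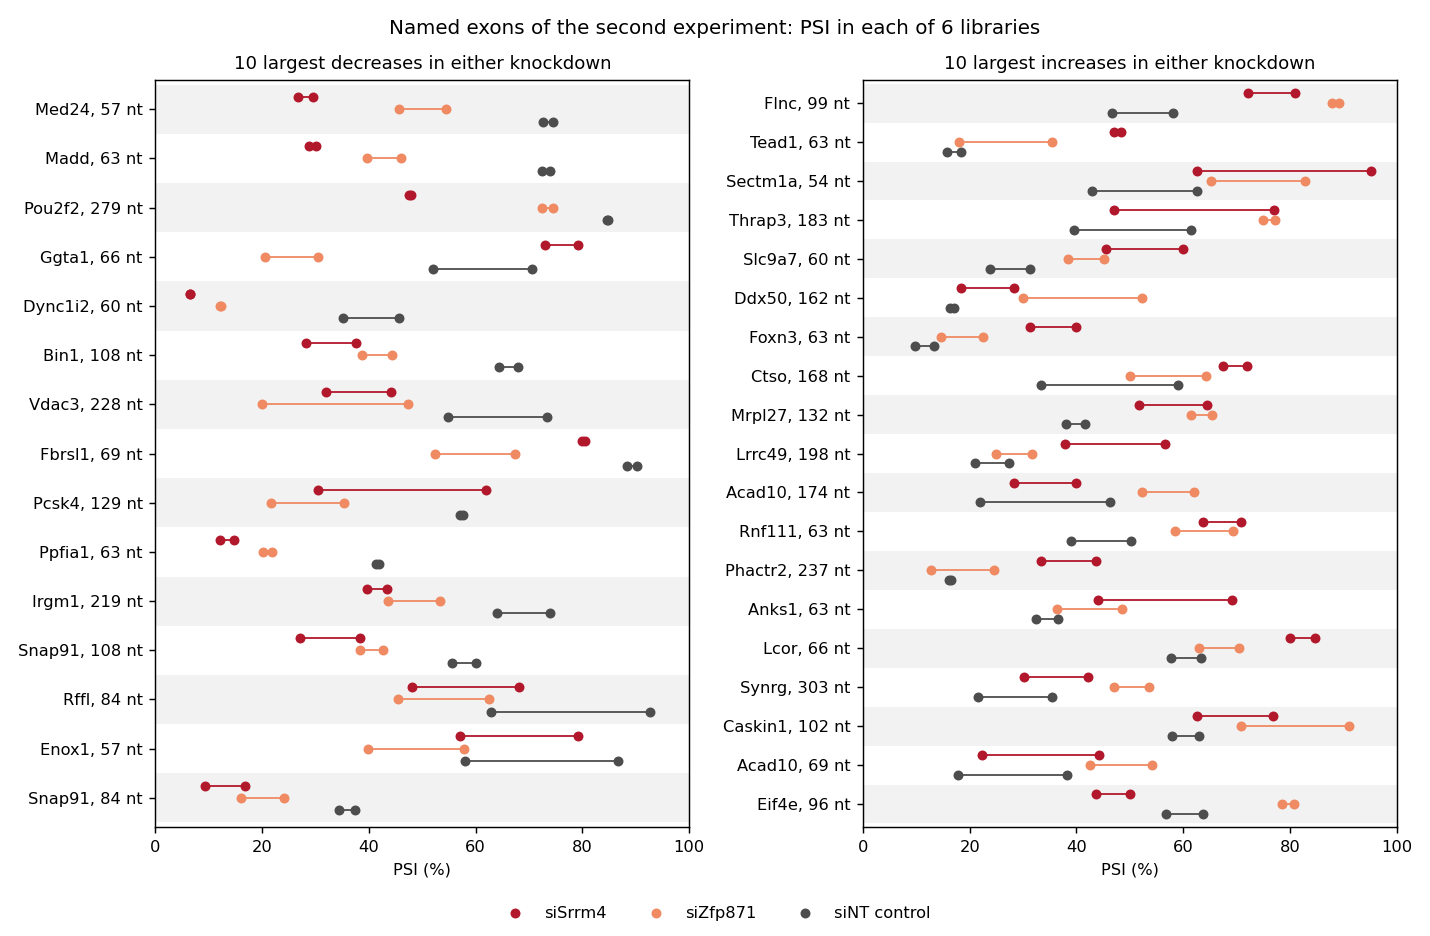
PSI in percent (horizontal axis) of the exons with the 10 largest decreases (left) and the 10 largest increases (right) in either knockdown of the second experiment. Each point is 1 library, a line joins the 2 libraries of a group, and siSrrm4, siZfp871 and siNT run from top to bottom within an exon. In Dync1i2, Med24, Madd and Ppfia1 the siSrrm4 points are lowest and the siZfp871 points lie between them and siNT.

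Knockdown of Zfp871 was compared with the same control libraries, so its values are set beside those of siSrrm4 and not treated as a second line of evidence. No member was called (edgeR quasi-likelihood test, background 0% of 20266 exons). Unadjusted, 44 members had p under 0.05, beside 879 of the 20266 exons tested, again no larger a share. Limma and the fit with the default abundance trend called 0. The likelihood ratio test called 8 higher (background 0.0938%) and 28 lower (0.819%, and 0.913% in either direction). Both siZfp871 libraries stood above both siNT libraries by at least 10 points in 71 members (background 1.16%) and below in 106 (2.9%), together 11.6% against 4.06%. Dync1i2 differed by -28.2 points in siZfp871, with an adjusted p of 0.869.

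The exons of Bin1, Madd, Med24 and Dync1i2, whose values are given above, and that of Vdac3, with 47.4% and 20% in siZfp871, against 54.8% and 73.3% in siNT, also ranked among the 10 largest decreases of siZfp871, against the same siNT libraries. The exon of Ggta1, a galactosyltransferase (mm9 chr2:35269739-35269804, - strand), had 79.1% and 72.95% in siSrrm4, 30.6% and 20.4% in siZfp871 and 70.5% and 52.04% in siNT on 20 to 63 reads. That of Fbrsl1 had 80.5% and 79.9% in siSrrm4, 52.4% and 67.3% in siZfp871 and 90.3% and 88.4% in siNT (adjusted p = 0.869, siZfp871 against siNT). In Ggta1 and Fbrsl1 both siZfp871 libraries were below all 4 others. Pcsk4, a proprotein convertase, had 61.9% and 30.4% in siSrrm4, 35.4% and 21.7% in siZfp871 and 57.7% and 57.1% in siNT, and its siSrrm4 libraries spanned a wider range than the gap between the other groups. Enox1, with 57.8% and 39.8% in siZfp871, against 86.7% and 58.02% in siNT, and Rffl, with 62.5% and 45.4% in siZfp871, against 92.6% and 62.95% in siNT, completed the list, and their siNT libraries lay far apart.

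Among the increases, the 96-nt exon of Eif4e, the cap-binding initiation factor (mm9 chr3:138210623-138210718, + strand), had 50% and 43.7% in siSrrm4, 78.6% and 80.8% in siZfp871 and 56.8% and 63.6% in siNT. Mrpl27, a mitochondrial ribosomal protein, had 64.4% and 51.7% in siSrrm4, 65.3% and 61.4% in siZfp871 and 41.7% and 38.1% in siNT for its 132-nt exon. Both siZfp871 libraries were above siNT in each, with siSrrm4 below siNT for Eif4e and above it for Mrpl27. Ddx50, an RNA helicase, had 18.4% and 28.2% in siSrrm4, 52.2% and 30% in siZfp871 and 17.02% and 16.4% in siNT. The exon of Synrg, a binding partner of a clathrin adaptor, had 42.2% and 30.2% in siSrrm4, 46.9% and 53.6% in siZfp871 and 35.5% and 21.6% in siNT. The remaining increases were in Flnc, Caskin1, Sectm1a, Thrap3 and 2 exons of Acad10. They ranged from 19.5 to 36.1 points over the 10, with an adjusted p of 0.869 for each and fewer than 50 reads in a library of 7.

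Setting siZfp871 directly against siSrrm4 leaves out the control that chose the members. No member was called (edgeR quasi-likelihood test, background 0%). An unadjusted p under 0.05 was found in 62 members, beside 970 of the 20266 exons tested, no larger a share. Limma and the fit with the default abundance trend called 0. The likelihood ratio test called 17 higher (background 0.39%) and 29 lower (0.444%, and 0.834% in either direction) in siZfp871. The 2 groups did not overlap and differed by at least 10 points in 211 members, 64 higher (background 1.53%) and 147 lower (2.66%) in siZfp871, together 13.8% against 4.19%. The exon of 4632411B12Rik (mm9 chr1:36404062-36404139, - strand) had 16.5% and 18.3% in siZfp871, 42.05% and 47.7% in siSrrm4 and 30.7% and 33.8% in siNT, so that siNT lay between the knockdowns. It differed by -27.4 points between siZfp871 and siSrrm4, with an adjusted p of 0.834 in the quasi-likelihood test and 2.56e-15 in the likelihood ratio test. Ggta1 differed by -50.5 points. A 111-nt exon of Dst, a cytoskeletal linker, had 78.3% and 81.9% in siZfp871, 66.2% and 68.9% in siSrrm4 and 61.8% and 60.6% in siNT and was chosen after its values were seen, with siZfp871 above both other groups.

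Knockdown of Mbnl1 and Mbnl2 was read without a test, since each group is 1 library. An exon is counted here when its PSI differed by at least 20 points and the 95% exact (Clopper-Pearson) binomial intervals of its reads did not overlap. These intervals cover counting error only. The count was 78 of 1626 members (4.8%, background 0.534% of 36175 exons), 34 higher (background 0.21%) and 44 lower (0.323%) with siMbnl1/Mbnl2. For scale, libraries a and b of the same group in the second experiment passed the same rule in 14 members for siSrrm4, 8 for siZfp871 and 31 for siNT (0.916%, 0.523% and 2.03% of 1529).

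The 54-nt exons of the targeted genes themselves were among those that stood higher. The Mbnl1 exon had 96.3% (90.7% to 98.97%) with siMbnl1/Mbnl2, 84.8% (79.4% to 89.3%) with siNacc1 and 59.01% (53.6% to 64.1%) with siNT. The Mbnl2 exon had 80.5% (64.8% to 92.04%) with siMbnl1/Mbnl2, 79.1% (72.2% to 84.6%) with siNacc1 and 51.5% (43.3% to 60.01%) with siNT. Both knockdowns were above the control in each, and Mbnl proteins are known to lower the inclusion of these exons in their own transcripts.

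Other increases were in genes of signalling and transcription. Map3k4, a kinase of stress signalling, had 64.8% (56.5% to 72.6%) with siMbnl1/Mbnl2, 44.7% (37.5% to 52.6%) with siNacc1 and 12.3% (7.75% to 18.9%) with siNT. The exon of Dgki, a diacylglycerol kinase, had 72.2% (64.4% to 78.8%) with siMbnl1/Mbnl2, 37.8% (29.1% to 47.7%) with siNacc1 and 21.1% (15.1% to 27.8%) with siNT. Socs7, an adaptor of cytokine signalling, had 57.8% (50.4% to 65.2%) with siMbnl1/Mbnl2, 28.2% (20.3% to 36.7%) with siNacc1 and 13.1% (8.31% to 19.4%) with siNT for its 102-nt exon. In all of these siNacc1 lay between the other libraries. The 147-nt exon of Numb, an inhibitor of Notch, had 68.6% with siMbnl1/Mbnl2 against 28.98% with siNT. Myt1, a neural zinc finger factor, had 80.5% with siMbnl1/Mbnl2 against 36.5% with siNT, and Pla2g6, a phospholipase, had 61.1% with siMbnl1/Mbnl2 against 18.3% with siNT. In these, too, siMbnl1/Mbnl2 was far above siNT. Exons of Adam15, Dgkh, Ssbp3 and Fmnl2 completed the 12 largest increases, which spanned 35.1 to 52.5 points.

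The largest decrease was in Arhgef12, a guanine nucleotide exchange factor, at 22.7% (13.7% to 32.8%) with siMbnl1/Mbnl2, 32.95% (24.9% to 42.6%) with siNacc1 and 79.4% (71.2% to 86.3%) with siNT. The 498-nt exon of Sgip1, a protein of endocytosis (mm9 chr4:102593627-102594124, + strand), had 22.6% (15.9% to 29.9%) with siMbnl1/Mbnl2, 26.2% (20.1% to 32.9%) with siNacc1 and 70.8% (64.6% to 76.2%) with siNT. Scarb1, the receptor for high-density lipoprotein, had 9.31% (6.45% to 12.6%) with siMbnl1/Mbnl2, 30.4% (26.5% to 34.4%) with siNacc1 and 57.04% (53.4% to 60.7%) with siNT for its 129-nt exon (mm9 chr5:125761475-125761603, - strand). All 3 were also lower with siNacc1. The exon of Dtx2, a Deltex ubiquitin ligase, had 12.2% with siMbnl1/Mbnl2, 50.9% with siNacc1 and 53.96% with siNT, and that of Bcas1 had 34.2% with siMbnl1/Mbnl2, 70.6% with siNacc1 and 83.6% with siNT. In Dtx2 the siNacc1 value stood near the control. The other decreases among the 12 largest were in Bcl9l (2 exons), Smpd4, Myo9a, Myo9b, Mapt and Golga2, from 34.5 to 56.7 points over the 12. Of the 76 counted exons that were also members in the second experiment, all 76 lay on the same side of the second experiment's siNT mean, 58 of them by at least 20 points.

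In Mapt, the gene of tau, several exons were low together (chosen in part after their values were seen). The 93-nt exon, which encodes one of the microtubule-binding repeats, had 6.81% (4.95% to 8.97%) with siMbnl1/Mbnl2, 21.3% (16.9% to 26.2%) with siNacc1 and 42.95% (39.1% to 46.7%) with siNT. The 87-nt exon shown above, which lies in the amino-terminal part of the protein, had 2.20% (1.21% to 3.53%) with siMbnl1/Mbnl2, 8.49% (6.02% to 11.8%) with siNacc1 and 31.9% (28.7% to 35.3%) with siNT. The 711-nt exon had 1.38% with siMbnl1/Mbnl2, 1.91% with siNacc1 and 13.4% with siNT, whereas the 66-nt exon had 64.9% with siMbnl1/Mbnl2, 68.9% with siNacc1 and 66.7% with siNT. Neither the 711-nt nor the 66-nt exon passed the size rule in either knockdown. In the second experiment the same 87-nt exon had 38.4% and 40.1% in siSrrm4, 24.5% and 21.5% in siZfp871 and 26.7% and 29.9% in siNT, with siSrrm4 above siNT and siZfp871 below. The amyloid precursor gene App held 2 members, chosen after their values were seen. Its 168-nt exon, which encodes a protease inhibitor domain, had 35.5% with siMbnl1/Mbnl2, 41.9% with siNacc1 and 59.3% with siNT, and in the second experiment 52.2% and 45.4% in siSrrm4, 55.8% and 54.6% in siZfp871 and 43.8% and 41.5% in siNT. Both knockdowns were thus below siNT in the first experiment and above it in the second, and the siNacc1 value lay within the range of the second experiment's siNT libraries.

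Knockdown of Nacc1 was read by the same size rule and against the same siNT library. Effects in both knockdowns therefore cannot be told apart from a property of that library within the first experiment, and the values are set side by side. The count was 65 of 1626 members (4.0%, background 0.498%), 19 higher (background 0.127%) and 46 lower (0.37%) with siNacc1. Against the siNT mean of the second experiment, the 63 that were members there all kept their side, 42 by at least 20 points. Mbnl1 RNA was 82.7 CPM with siNacc1 and 124 with siNT, and its part in these exons was not tested.

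Several exons passed the rule with siNacc1 and not with siMbnl1/Mbnl2. The 129-nt exon of Tsc2, the tuberin subunit of a complex that restrains growth signalling (mm9 chr17:24743169-24743297, - strand), had 85.5% (78.95% to 91.1%) with siMbnl1/Mbnl2, 38.9% (31.2% to 46.95%) with siNacc1 and 86.2% (80.6% to 90.6%) with siNT. Golim4, a Golgi membrane protein, had 67.9% (62.4% to 73.2%) with siMbnl1/Mbnl2, 24.2% (17.5% to 31.6%) with siNacc1 and 71.2% (66.1% to 75.8%) with siNT. Nfya, a subunit of the transcription factor NF-Y, had 56.99% (51.1% to 62.9%) with siMbnl1/Mbnl2, 27.7% (22.3% to 34.05%) with siNacc1 and 73.4% (67.8% to 78.6%) with siNT. In each, siNacc1 was the lowest library, and its interval did not reach either of the others. Zfp238, a transcriptional repressor, had 24.1% with siMbnl1/Mbnl2, 54.1% with siNacc1 and 24.7% with siNT, and here siNacc1 was the highest library. The 93-nt exon of Exoc7, a subunit of the exocyst, had 45.05% with siMbnl1/Mbnl2, 68.1% with siNacc1 and 36.1% with siNT. Golim4 and Nfya in the second experiment's siNT libraries were at 61.9% and 67.8%, and at 71.3% and 56.1%.

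Map3k7, the kinase TAK1, was higher in both knockdowns and highest with siNacc1, at 45.1% (37.6% to 52.6%) with siMbnl1/Mbnl2, 69.03% (63.3% to 74.3%) with siNacc1 and 23.99% (17.6% to 31.5%) with siNT. The exon of Foxp1, a forkhead factor, had 93.9% with siMbnl1/Mbnl2, 93.6% with siNacc1 and 66.3% with siNT. A 60-nt exon of Cacna1c, the pore subunit of a voltage-gated calcium channel (mm9 chr6:118624364-118624423, - strand), had 95.6% with siMbnl1/Mbnl2, 88.5% with siNacc1 and 61.6% with siNT. In these 3 exons both knockdown libraries were above the control. Among the decreases, Plod2, a lysyl hydroxylase, had 25.6% with siMbnl1/Mbnl2, 15.2% with siNacc1 and 55.3% with siNT, and Git2, a regulator of Arf GTPases, had 16.6% with siMbnl1/Mbnl2, 13.3% with siNacc1 and 45.1% with siNT. Eml4, a microtubule-binding protein, had 62.7% with siMbnl1/Mbnl2, 53.7% with siNacc1 and 87.5% with siNT, and Epb4.1l3, a membrane skeleton protein, had 38.7% with siMbnl1/Mbnl2, 28.4% with siNacc1 and 59.7% with siNT. All 4 were lower in both knockdowns. The remaining exons among the 12 largest in either direction were in Arhgef12, Sgip1, Smpd4, Fnip2, Myo9a, Myt1, Tmem87b, Pla2g6, Map3k4, Dgkh, Mbnl2 and Adam15. Decreases spanned 31.3 to 47.2 points over the 12 and increases 26.7 to 45.04 points.

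**Figure D2:**
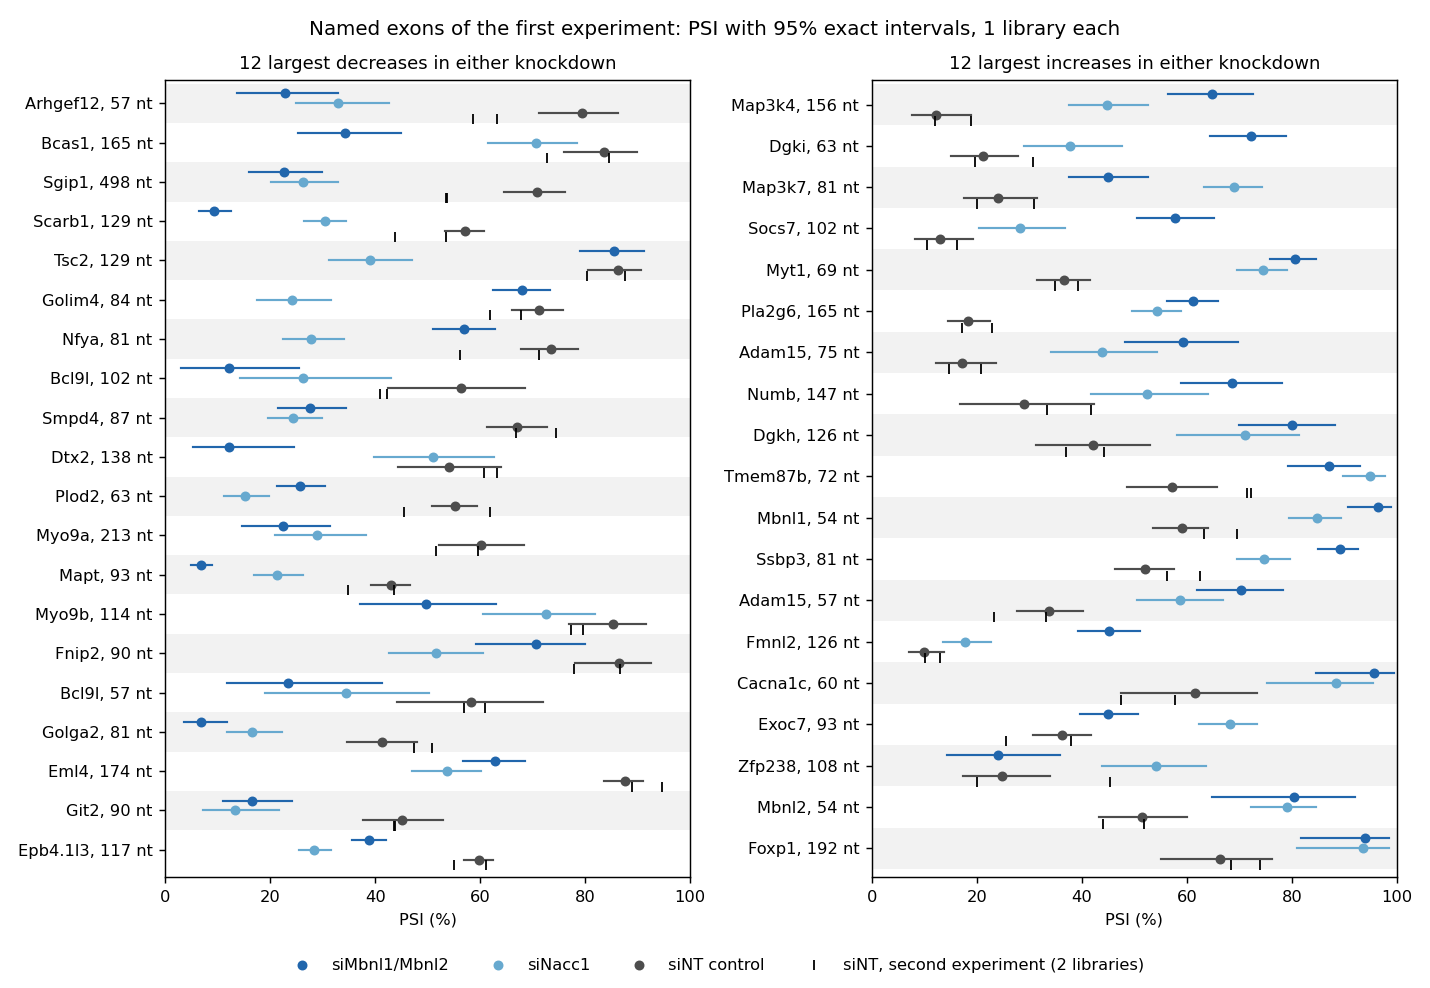
PSI in percent (horizontal axis) with 95% exact binomial intervals of the exons with the 12 largest decreases (left) and the 12 largest increases (right) in either knockdown of the first experiment, 1 library per group. Within an exon siMbnl1/Mbnl2, siNacc1 and siNT run from top to bottom, and ticks mark the 2 siNT libraries of the second experiment. For Tsc2 and Golim4 only siNacc1 lies far from the control, and for Dtx2 only siMbnl1/Mbnl2.

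The experiments share no control library, and 1308 exons were members in both. Of these, 940 passed the rule of no knockdown, 267 of 1, 85 of 2, 15 of 3 and 1 of all 4, where the knockdowns of 1 experiment share their siNT. Here the rule of the second experiment is the non-overlap of both libraries with at least 10 points. Exons that passed in siSrrm4 and in siMbnl1/Mbnl2 numbered 17, which is 8.76% of the 194 passing in siSrrm4 and 22.4% of the 76 passing in siMbnl1/Mbnl2. The direction of the 17 was the same in 4 and opposite in 13. Over all 1308 exons the shares passing were 14.8% in siSrrm4, 11.7% in siZfp871, 5.81% with siMbnl1/Mbnl2 and 4.82% with siNacc1, and the overlaps were not tested. For siSrrm4 and siNacc1 the count was 15, with 8 in the same direction. For siZfp871 it was 15 with siMbnl1/Mbnl2, with 4 in the same direction, and 7 with siNacc1, with 3 in the same direction.

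The exon that passed all 4 rules was the 87-nt exon of Tnik, a kinase of Wnt and cytoskeletal signalling. It had 90.5% (85.6% to 94.2%) with siMbnl1/Mbnl2, 85.5% (80.5% to 89.96%) with siNacc1 and 58.97% (52.1% to 65.6%) with siNT in the first experiment. In the second it had 42.4% and 38.2% in siSrrm4, 37.5% and 40.5% in siZfp871 and 53.2% and 48.8% in siNT. Thus it was higher in both knockdowns of the first experiment and lower in both of the second. Faim had 67.9% with siMbnl1/Mbnl2, 57.1% with siNacc1 and 46.97% with siNT and was likewise high with siMbnl1/Mbnl2 and low with siSrrm4. Bptf, a chromatin remodelling factor, had 19.03% with siMbnl1/Mbnl2, 19.04% with siNacc1 and 44.3% with siNT in the first experiment and 26.7% and 19.7% in siSrrm4, 42.5% and 33.3% in siZfp871 and 49.6% and 35.8% in siNT in the second. Mff, a mitochondrial fission factor, had 22.1% with siMbnl1/Mbnl2, 20.02% with siNacc1 and 48% with siNT in the first and 66.2% and 59.1% in siSrrm4, 50.6% and 44.2% in siZfp871 and 61.3% and 56.1% in siNT in the second. Bptf was thus low in both knockdowns of the first experiment and in siSrrm4, and Mff in both of the first and in siZfp871. The other exons past 3 rules were in 4632411B12Rik, Bin1 (93 nt), Epb4.1l2, Flnc, Fnip2, Mapt (87 and 93 nt), Myo9a, Pou2f2, Ppfia1, Scarb1 and Ssbp3.

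Exons of the same gene share transcripts and some junction reads, so their values are not independent. Snap91 held 7 members, chosen after their values were seen, and all 7 were below siNT in siSrrm4, with differences of -25.01 to -5.27 points, and in siZfp871, with -17.2 to -4.42 points. Its 72-nt exon had 27.1% and 19.5% in siSrrm4, 33.7% and 30.5% in siZfp871 and 41.9% and 40.4% in siNT. In the first experiment the 7 exons differed from siNT by 0.07 to 5.20 points with siMbnl1/Mbnl2 and by -10.8 to -2.54 points with siNacc1, none past the size rule. The 72-nt exon was at 63.7% in the siNT library of the first experiment, so the controls of the experiments differed for it. The members of Cux1, Fryl and Ank3 were likewise chosen after their values were seen. Cux1, a homeodomain factor, had 6 members, on average all below siNT in siSrrm4 (-11.3 to -1.75 points) and all above it in siZfp871 (2.04 to 7.19 points). The 6 members of Fryl showed the reverse, with mean differences from siNT of 6.05 to 9.32 points in siSrrm4 and -7.51 to -2.27 points in siZfp871. Only 1 of the Cux1 exons and none of the Fryl exons passed the rule of the second experiment in siSrrm4. No exon of either gene passed it in siZfp871. Ank3, an ankyrin of the axon initial segment, held 10 members, 9 of them above siNT on average in both knockdowns. In siSrrm4 2 Ank3 exons passed the rule as higher and 1 as lower, and in siZfp871 1 passed as higher. Most of the 9 overlapped siNT in siZfp871, and most were below siNT b in siZfp871 b. The 2550-nt exon of Ank3 was the exception in both, with 15.3% and 25.6% in siSrrm4, 16.2% and 28.9% in siZfp871 and 27.04% and 43.5% in siNT. Its siZfp871 libraries also overlapped siNT.

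**Figure D3:**
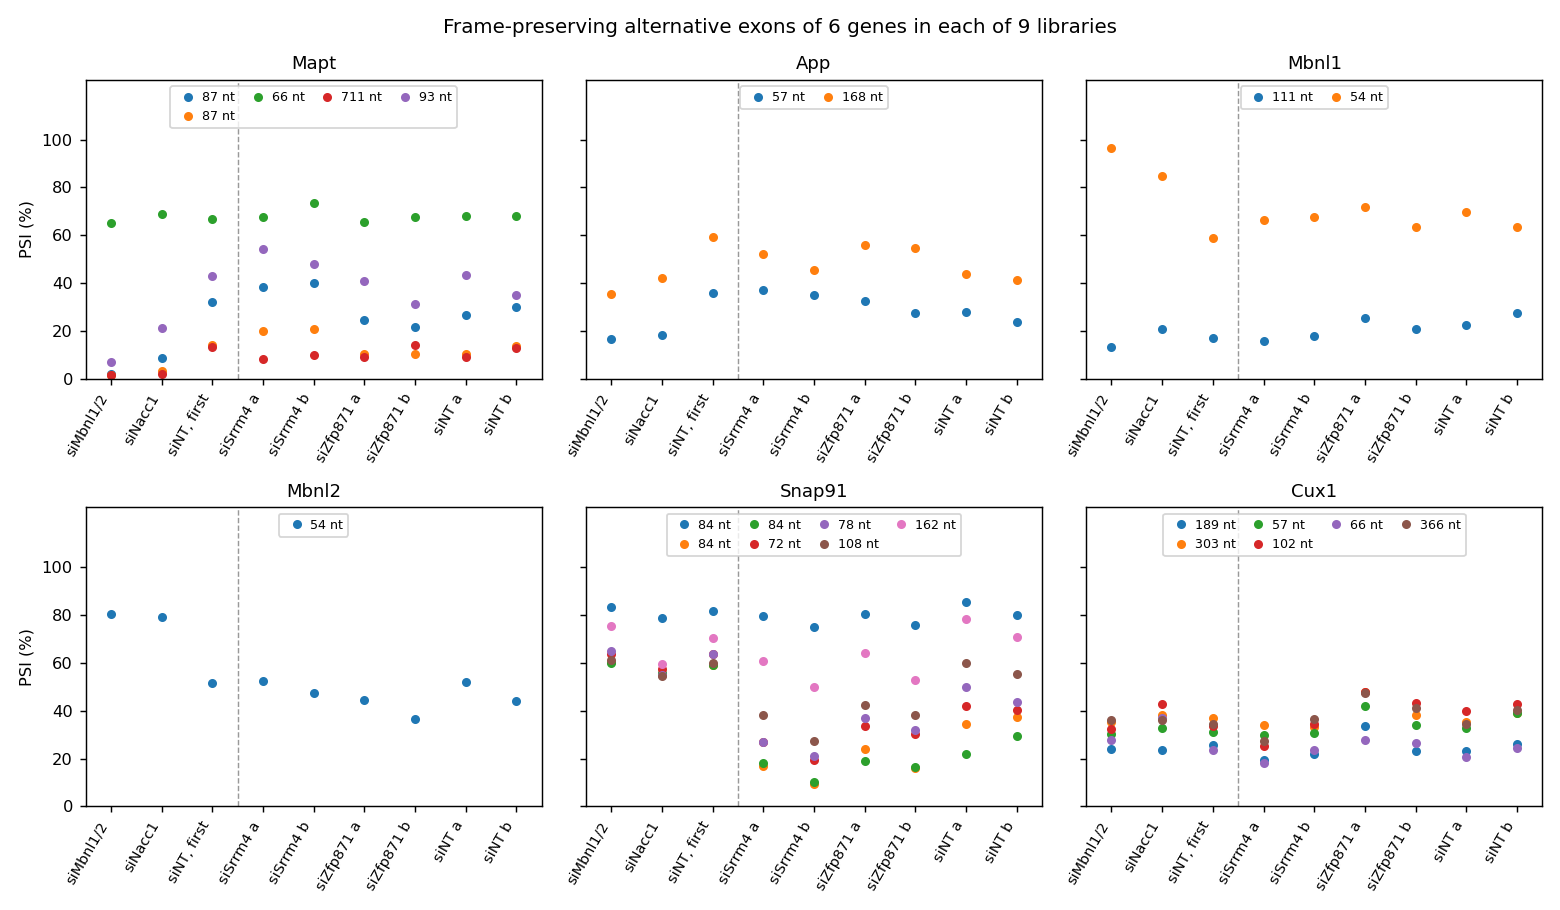
PSI in percent (vertical axis) of every frame-preserving alternative exon of Mapt, App, Mbnl1, Mbnl2, Snap91 and Cux1 in each of 9 libraries, with 1 point per exon and library and a dashed line between the experiments. The Mapt 87-nt and 93-nt exons and both App exons are lower in siMbnl1/Mbnl2 and siNacc1 than in their siNT, and the Snap91 exons are on average lower in siSrrm4 and siZfp871 than in theirs.

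Host genes were also grouped by role, in 9 overlapping lists. The lists were drawn from patterns in the gene symbol, so a list can hold genes of other roles. Of 74 exons in genes of adhesion, receptors and channels, 14 were higher and 0 lower in siSrrm4 by the no-overlap rule, with a median difference of 2.82 points against 1.13 over all members. The share past the rule was 18.9% of the list, beside 14.1% of all members. They included exons of App, Cacna1b and Cacna1c (calcium channel pores), Dlg1 (a synaptic scaffold), Ptprs (a receptor phosphatase), Sema6d and Slc9a7. Exons of the solute carriers Slc12a8, Slc27a3 and Slc37a3 and of Itgb3bp, which the symbol patterns took in, were also among the 14. The split of 14 and 0 therefore does not describe adhesion, receptor and channel genes alone. None of these exons passed the adjusted test. In siZfp871 the same list had 8 higher and 4 lower (16.2%, beside 11.6% of all members). Membrane trafficking genes (91 exons) had 5 higher and 14 lower in siSrrm4 and 3 higher and 18 lower in siZfp871, with medians of -2.01 and -3.35 points against 1.13 and -0.89 over all members. These are 20.9% and 23.1% of the list, and exons of Snap91, which share transcripts, made up 6 of the 14 and 4 of the 18. Bin1, Madd, Snap91, Golgb1 and Ehbp1 were on the lower side in both, which share siNT. Kinases, phosphatases and GTPase regulators (108 exons) had 6 higher and 10 lower in siSrrm4 and 3 higher and 10 lower in siZfp871 (14.8% and 12.04% of the list), with Tnik low in both. The lower counts include exons of Plekha5 in both knockdowns and of Plekha6 in siZfp871, genes of other roles taken in by their symbols.

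In the first experiment, cytoskeleton and motor genes (107 exons) had 2 higher and 9 lower with siMbnl1/Mbnl2 and 0 higher and 10 lower with siNacc1. These are 10.3% and 9.35% of the list, beside 4.8% and 4.0% of all members. Mapt, Mtap2 (a microtubule-associated protein of dendrites) and Myo9a were among those low in both. Kinases, phosphatases and GTPase regulators (109 exons) had 9 higher and 4 lower with siMbnl1/Mbnl2, the higher ones including Map3k4, Map3k7, Map4k4, Dgkh, Dgki, Pip5k1c and Tnik. With siNacc1 that list had 4 higher and 6 lower, and the shares were 11.9% with siMbnl1/Mbnl2 and 9.17% with siNacc1. Among 58 exons in genes of splicing factors and other RNA-binding proteins, those of Mbnl1 and Mbnl2 were among the higher ones with siMbnl1/Mbnl2 and with siNacc1. None of the 58 was lower in either, beside 44 and 46 of all 1626 members. The shares past the rule were 5.17% and 3.45% of the list, near those of all members. Genes known as hosts of Mbnl-regulated exons (47 exons) had 6 higher and 7 lower with siMbnl1/Mbnl2, and 4 higher and 8 lower with siNacc1 (27.7% and 25.5% of the list). Their names come from general knowledge of Mbnl biology, and the list was made with earlier results of these data known. None of 30 exons in translation genes passed in either knockdown of the first experiment, beside the 4.8% and 4.0% of all members. Chromatin and transcription genes (155 exons) had 1 higher and 2 lower with siMbnl1/Mbnl2 (1.94%) and 2 higher and 3 lower with siNacc1 (3.23%). None of these gaps between lists was tested.

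**Figure D4:**
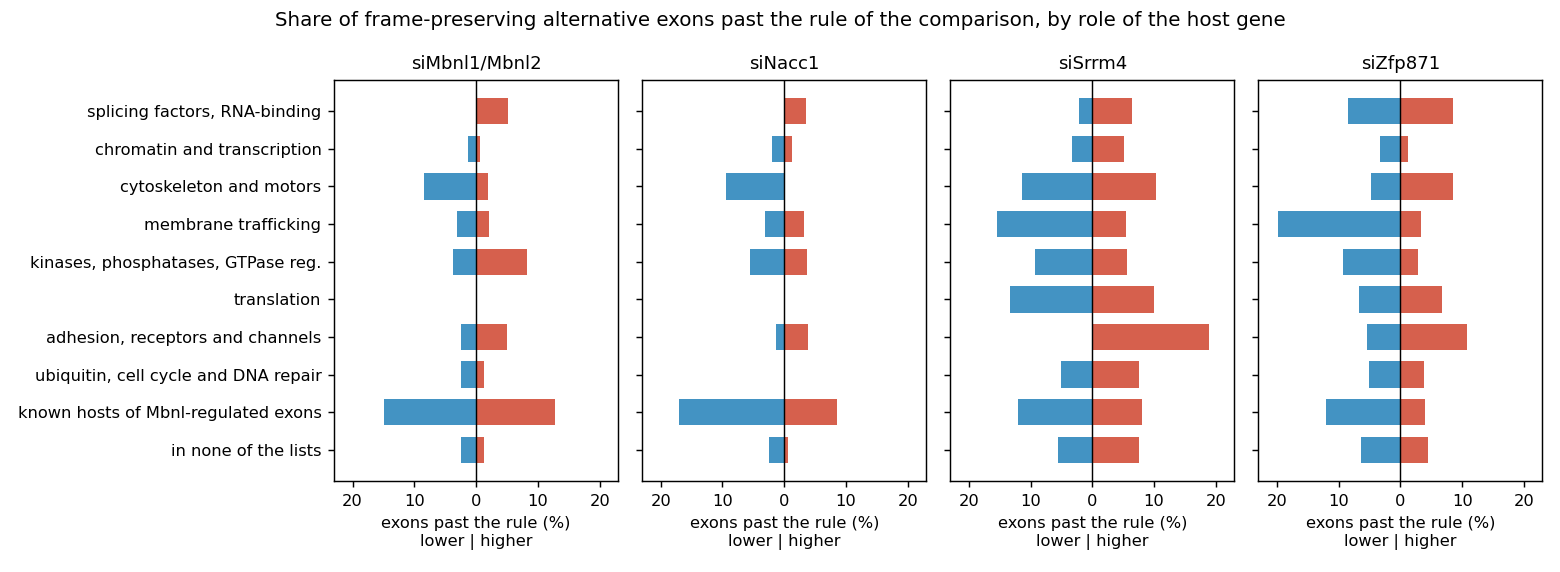
Percent of frame-preserving alternative exons in each role list (rows) that passed the rule of the comparison, to the left of 0 where lower and to the right where higher in the knockdown named above each panel. The first 2 panels use at least 20 points with separate 95% intervals and the last 2 use no overlap of libraries with at least 10 points, so their shares are not on 1 scale. Membrane trafficking has 14 and 18 of 91 exons on the lower side in siSrrm4 and siZfp871.

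Gene expression was compared for the hosts (edgeR quasi-likelihood test over 12378 genes). With siSrrm4, 66 of 1185 tested host genes were called, 10 higher and 56 lower (5.57%, background 4.7% in either direction, 1.41% higher and 3.29% lower). With siZfp871 it was 44, 5 higher and 39 lower (3.71%, background 2.89% in either direction, 0.751% higher and 2.14% lower). Without 1 library these counts fell to 0 to 22 for siSrrm4 and 0 to 26 for siZfp871, lowest without siNT b, siSrrm4 b or either siZfp871 library for siSrrm4 and without siNT b or either siZfp871 library for siZfp871. Of the 191 hosts of exons past the no-overlap rule in siSrrm4, 14 were called (7.33%), beside 52 of 995 hosts of other members (5.23%). In siZfp871 these were 7 of 164 (4.27%) and 37 of 1022 (3.62%), and neither gap was tested. Dync1i2 and Med24 RNA differed by -0.03 ± 0.08 and 0.14 ± 0.09 log2 units (SE) in siSrrm4, neither past the threshold (adjusted p = 0.881 and 0.389). Snap91 RNA fell by 0.76 ± 0.12 (adjusted p = 0.0282) and Bin1 RNA by 0.81 ± 0.15 (adjusted p = 0.04), beside their lower exons. Ggta1 RNA fell by 1.16 ± 0.19 in siZfp871 (adjusted p = 0.0373), where its exon was low on few reads. In the first experiment, Mbnl1 and Mbnl2 were the only 2 of 1274 host genes with at least 50 counts that differed by 1 log2 unit or more with siMbnl1/Mbnl2 (0.157%, background 1.02%), and 10 did so with siNacc1 (0.785%, background 3.38%). Arhgef12 and Tsc2 were not among them.

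Length and frame were set beside the other alternative exons of the same window. By the no-overlap rule in siSrrm4, 14.1% of the members passed, beside 12.1% of frame-shifting exons over 51 nt, 21.4% of 365 exons of 28 to 51 nt and 55.7% of 183 microexons of 3 to 27 nt. In siZfp871 the shares were 11.6%, 9.77%, 23.01% and 52.5%. The median difference of the members was 1.13 points in siSrrm4 and -0.89 in siZfp871, beside -10.8 and -10.1 points in microexons. With siMbnl1/Mbnl2 the size rule was passed by 4.8% of members, 1.59% of frame-shifting exons, 7.64% of exons of 28 to 51 nt and 9.65% of microexons, and with siNacc1 by 4.0%, 2.14%, 6.68% and 7.61%. None of these gaps between classes was tested. Within the members, the shortest (52 to 75 nt) passed most often in siSrrm4, with 45 higher and 26 lower of 364 (19.5%), against 12.6%, 10.4% and 14.8% of those of 76 to 99, of 100 to under 150 and of 150 nt or more. In siZfp871 the same 4 length classes gave 12.9%, 11.01%, 10.4% and 12.2%. The authors' deposited table marks 207 of 1626 members as differential with siMbnl1/Mbnl2 and 218 with siNacc1. In the second experiment it marks 85 of 1529 members with siSrrm4 and 55 with siZfp871. For some members the mark is blank, which is neither a positive nor a negative mark. Among these are the 108-nt exon of Bin1 and that of Pou2f2 with siSrrm4, and those of Bcas1 and Bcl9l with siMbnl1/Mbnl2. An unmarked member is therefore not always one marked as unchanged. Over all exons the marks number 590 with siMbnl1/Mbnl2, 632 with siNacc1, 311 with siSrrm4 and 251 with siZfp871. All 85 of siSrrm4 and 54 of the 55 of siZfp871 marked in the authors' deposited table also passed the no-overlap rule. Of those marked in the authors' deposited table for the first experiment, 63 of 207 with siMbnl1/Mbnl2 and 54 of 218 with siNacc1 passed the size rule.

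**Figure D5:**
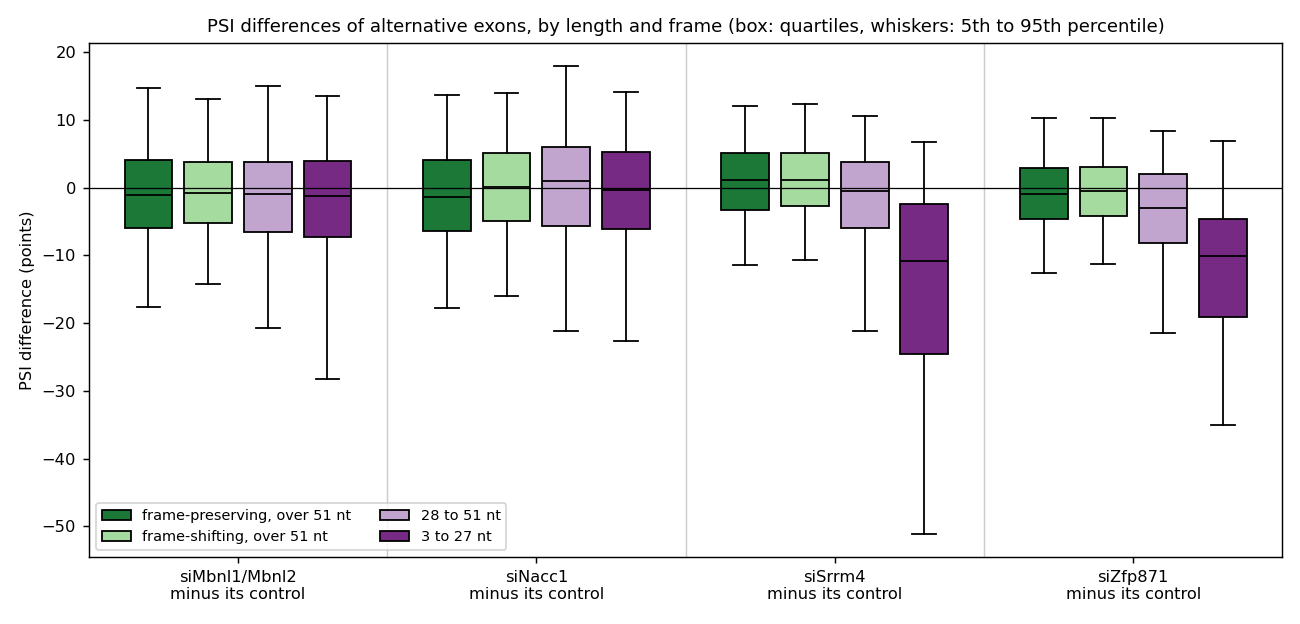
PSI difference in points (vertical axis, knockdown minus its own siNT) of alternative exons by length and frame, with medians, quartiles and 5th to 95th percentiles. The frame-preserving exons over 51 nt, in dark green, have medians between -1.36 and 1.13 points, while microexons of 3 to 27 nt have medians of -10.8 and -10.1 points in siSrrm4 and siZfp871.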

How the data were processed

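Exon reads came from the tables of vast-tools, a splicing quantifier, which the authors deposited per library. Build mm9 and the tools CASAVA 1.8 and edgeR are listed in the submitters' processing notes, and no aligner is named in them. The labels name either of 2 RNA extraction kits without saying which library got which. PSI was computed as percent from inclusion and exclusion reads, and the authors' own percent values per group, as deposited, were used only for their differential marks. Gene counts were deposited by the authors as raw read counts, and their log2 fold changes and FDR values (adjusted p-values), deposited beside them, were not used for any test. Another 23 columns of per-library values were not used.

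Exons covered by 10 reads or more in all 6 libraries of the second experiment and a PSI between 2% and 98% in at least 1 (20266 exons) were fitted together with the edgeR 4.0.16 quasi-likelihood test (R 4.3.3). Reads were rounded to whole numbers, each library had its own total per exon, and the tested term was the change in the inclusion share. The negative binomial dispersion was common to all exons, and the quasi-dispersion of each exon was moderated with no abundance trend. Calls required an adjusted p below 0.05 together with a PSI difference of 10 points. Genes were filtered with filterByExpr, scaled with TMM and fitted over the 6 libraries. The first experiment, with 1 library per group, was described by the size rule. Both scripts were tested on simulated data. Columns are lettered a and b, which the labels' replicate numbers do not tie to samples.

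Named exons were all called members, the 12 largest differences in each direction past the size rule for each knockdown of the first experiment, the 10 largest in each direction without overlap for each knockdown of the second, and members past the rule in 3 or more knockdowns. Others are said to be chosen after their values were seen. The members and lists were chosen with earlier results of these data known. Sequences were read from GENCODE M21 (GRCm38), a build other than that of the files, by exon and intron lengths. Alternatives were limma 3.58.1, DESeq2 1.42.0, other thresholds and leaving out libraries.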

Additional observations from a re-analysis of the deposited data

How the results depend on the processing

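Calls among the members depended on how the spread between libraries was modelled. For siSrrm4 against siNT the quasi-likelihood test without an abundance trend called 0 exons. Other settings of that fit were tried after its result had been seen. The default abundance trend called 2, a tagwise dispersion 21, a negative binomial dispersion of 0 called 35, and robust moderation 0. Limma on the logit of PSI and the 4 libraries compared alone called 0. The likelihood ratio test called 59 and the no-overlap rule held for 216. For siZfp871 against siNT the quasi-likelihood test called 0, with 0 by the default trend, 18 by a tagwise dispersion, 25 at a dispersion of 0, 36 by the likelihood ratio test and 177 by no overlap. For siZfp871 against siSrrm4 these counts were 0, 0, 13, 26, 46 and 211. The letters a and b used as a replicate block left the quasi-likelihood counts at 0 in all 3 comparisons. The likelihood ratio test with the replicate block called 94, 75 and 93. Differences between a and b correlated between groups at 0.182 to 0.258 over member exons and 0.696 to 0.814 over genes, with 2 pairs per comparison. The libraries of a letter thus deviated together, most over genes, but the labels do not say what a letter marks and 2 pairs do not settle whether the libraries were paired. The host gene counts below depend on that.

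Leaving out 1 library at a time gave 0 quasi-likelihood calls in each comparison. The likelihood ratio test then gave 29 to 55 for siSrrm4 (lowest without siNT a), 19 to 39 for siZfp871 (lowest without siZfp871 b), and 12 to 47 for siZfp871 against siSrrm4 (lowest without siZfp871 b). In such fits the group with 1 library is assumed to vary like the others. The size rule gave 163 members at 10 points and 34 at 30 points with siMbnl1/Mbnl2, and 171 and 20 with siNacc1. Called host genes numbered 66 for siSrrm4, 204 by DESeq2, 449 with the replicate block and 0 to 22 without 1 library. For siZfp871 they numbered 44, then 153, 372 and 0 to 26. The cause of these shifts was not tested. The counts under the other alternatives stayed within 1.5 times. Of 259 recomputed differences of 40 named exon results, 239 moved by less than the spread between libraries, 20 by more, and 0 changed sign. Depth limits the exons with under 50 reads, where 1 read is over 2 points.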
